A study of Mus musculus with 9 samples.

Results

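The genes described here encode heat shock proteins and DnaJ proteins, measured in motor neurons of 3 pools. A gene was a member when its symbol in the platform annotation began with Dnaj or Hsp90, or with Hspa or Hspb and a number, or was Hspd1, Hspe1 or Hsph1. The endoplasmic reticulum chaperone Hspa5 was left out of the members. A probe set is a group of short probes on the array that reads 1 transcript, and each gene was read through its brightest probe set, by the mean of the 9 arrays. This gave 69 members of 18193 genes, 44 of them DnaJ genes and 25 heat shock protein genes.

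Chaperones bind proteins that are not yet folded, or that have lost their fold, and help them to reach a working shape. Hsp70 proteins do this in cycles of ATP binding and hydrolysis: DnaJ proteins, also called Hsp40 or J-domain proteins, bring the client and start hydrolysis, and nucleotide exchange factors such as the Hsp110 proteins let the client go. Small heat shock proteins hold unfolded proteins without using ATP, Hsp90 proteins finish the folding of signalling proteins, and Hsp60 with Hsp10 forms a folding chamber in mitochondria. Stress raises part of these genes through heat shock factors, which bind heat shock elements in promoters. Motor neurons are known for a high threshold for that response, and mutations in several members cause inherited disease of motor nerves.

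All animals were untreated wild-type male C57BL/6J mice at postnatal day 7. Motor neurons were cut by laser from 12 µm sections stained with cresyl violet, about 200 neurons for each pool and animal, and 1.5 ng of RNA or more went into a whole-transcript amplification kit before hybridisation to Affymetrix Mouse Genome 430 2.0 arrays. The L5 pool holds motor neurons of the fifth lumbar segment, the OMN pool those of the oculomotor nucleus in the midbrain, which moves the eyes, and the DL pool those of the dorsolateral nucleus in segment L6. The series compares pools that differ in vulnerability in amyotrophic lateral sclerosis (ALS), in which limb motor neurons are lost early and eye-movement motor neurons are largely spared. Each pool had 3 arrays, labelled as biological replicates from 3 animals. The neurons were recognised by the stain alone as far as the labels say, and all pools come from healthy young animals, not from a disease model.

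The deposited values are linear intensities without a unit, and every array had been scaled to the same mean. The noise level was set at 18.3, the largest reading among 27 bacterial control probe sets whose transcripts are absent from the samples. Between 57 and 61 members lay above it on each array, and across genes, arrays of 1 pool correlated at an r between 0.968 and 0.971 for L5, 0.971 and 0.975 for OMN, and 0.945 and 0.949 for DL. For Gapdh, the 3′ control probe set divided by the 5′ one, which rises when RNA is degraded, gave 3.27 and 3.75 on DL arrays 1 and 3 and 2.33 to 2.67 on the other 7 arrays. Of 10 motor neuron markers, 9 lay above noise on all arrays of each pool. The transcription factor gene Mnx1 was the one under noise in OMN, and Chat was dim in all pools through its probe set. Summed over the motor neuron markers, intensity ran from 46877 to 48947 in L5, from 34278 to 36095 in OMN and from 35156 to 40293 in DL. Not every marker followed this sum: Isl1 had pool means of 598 in L5, 2129 in OMN and 2717 in DL. In such bulk samples, fewer cells of a type and less RNA per cell cannot be told apart.

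Neighbouring cells were also represented. The 10 astrocyte markers summed to values from 22826 to 24273 in L5, from 18316 to 18865 in OMN and from 18936 to 21326 in DL, and 10, 9 and 10 of them lay above noise on all arrays of these pools. Single astrocyte markers did not all follow the sum. Gfap was highest in DL, with pool means of 325 in L5, 18 in OMN and 1550 in DL. Aldh1l1 was highest in OMN, with 385, 533 and 274. The 10 oligodendrocyte markers measured summed to 16246 to 17364, 12956 to 14551 and 22979 to 25074, all 10 above noise in each pool. The 10 endothelial and mural markers summed to 2412 to 2957, 3258 to 3545 and 3999 to 4231, with 9, 10 and 9 above noise on all arrays. The 10 microglial markers summed to 787 to 1055, 804 to 1048 and 464 to 1137, with 5, 6 and 4 above noise. The 3 Schwann cell and sensory ganglion markers measured summed to 1866 to 2221, 102 to 173 and 731 to 1110, through the myelin gene Pmp22 alone, since the other 2 were at or under noise on all arrays. The 4 inhibitory interneuron markers measured summed to 1628 to 2232, 1852 to 2674 and 5017 to 5875, with 4, 3 and 4 above noise. The 6 ependymal and ciliated markers summed to 122 to 219, 171 to 287 and 148 to 258, with 2 above noise in each pool. The part of these cells in the differences described here was not tested.

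The promoters were searched for exact spellings of heat shock elements, so elements that depart from these spellings were missed. In the RefSeq promoter table (GRCm38.p6), 56 of the 69 members were found, and the 250 bases before each start site were searched on both strands. The 13 members not found, among them Dnajc11, Hspa8, Hspa9 and Hsp90aa1, were not searched. The element of 3 units, spelled GAANNTTCNNGAA or TTCNNGAANNTTC, occurred in 3 of these members, Hspd1, Hspe1 and Dnajb6. That was 5.36% of the members found, with Hspd1 and Hspe1 counted through the same stretch, and compares with 0.514% of all 27025 gene symbols in the table. The shorter element of 2 units, GAANNTTC or TTCNNGAA, which lies within each longer one, occurred in 14 members, or 25%, and in 14.5% of all symbols. These 14 were Dnaja1, Dnaja4, Dnajb4, Dnajb6, Dnajc10, Dnajc27, Hspa1a, Hspa1b, Hspb1, Hspb3, Hspb6, Hspd1, Hspe1 and Hsph1. A match describes letters and is not a measured site of binding.

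The sequences with the 3-unit element are shown with the matched bases in capitals. Hspd1 and Hspe1 are neighbours that run in opposite directions, and the same stretch at chr1:55088034-55088101 lies before both, read on the minus strand for Hspd1 and on the plus strand for Hspe1. It holds 2 overlapping matches, of which the outer begins 144 bases before the start site of Hspd1 and 89 bases before that of Hspe1. The stretch of Dnajb6 lies at chr5:29735827-29735889 on the plus strand, and its match begins 46 bases before one annotated start site and 127 before another.
Hspd1: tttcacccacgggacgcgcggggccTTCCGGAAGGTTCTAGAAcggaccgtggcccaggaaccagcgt
Hspe1: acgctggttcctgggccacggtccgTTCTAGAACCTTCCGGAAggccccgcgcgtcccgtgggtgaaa
Dnajb6: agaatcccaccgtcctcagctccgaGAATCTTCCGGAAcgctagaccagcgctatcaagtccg

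The last 120 bases before the start site are shown for Hspa1b and Hspb8, which differ between pools below, and for Hspa1a, the near copy of Hspa1b. All 3 lie on the minus strand, Hspa1b at chr17:34959239-34959358, Hspa1a at chr17:34972157-34972276 and Hspb8 at chr5:116422865-116422984. Hspa1a and Hspa1b are equal at 119 of these 120 bases (99.2%), and each holds 1 element of 2 units, in capitals, that begins 104 bases before the start site. Hspb8 holds 0 matches in its 120 bases.
Hspa1b: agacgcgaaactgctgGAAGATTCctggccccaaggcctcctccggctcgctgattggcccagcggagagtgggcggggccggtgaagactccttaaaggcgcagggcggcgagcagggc
Hspa1a: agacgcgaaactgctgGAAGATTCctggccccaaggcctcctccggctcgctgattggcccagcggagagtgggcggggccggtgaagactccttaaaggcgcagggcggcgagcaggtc
Hspb8: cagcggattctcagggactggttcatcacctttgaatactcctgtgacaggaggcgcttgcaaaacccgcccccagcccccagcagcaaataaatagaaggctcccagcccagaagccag

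Most members were measured above noise in all 3 pools. On all 9 arrays, 53 members lay above noise, and 11 did so on some arrays. The 5 that did so on no array were Dnajb3, Dnajb7, Dnajc22, Dnajc5g and Hspb9, with values from 0.4 to 17.4, and these are counted among the 69 in all counts here. In the 47 members with a mean over 200, the median standard deviation (SD) between the arrays of a pool was 0.15 in L5, 0.17 in OMN and 0.20 in DL on the log2 scale, against 0.20, 0.17 and 0.29 for all 7120 such genes. The members therefore varied between replicates no more than other genes of that brightness.

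**Figure D1:**
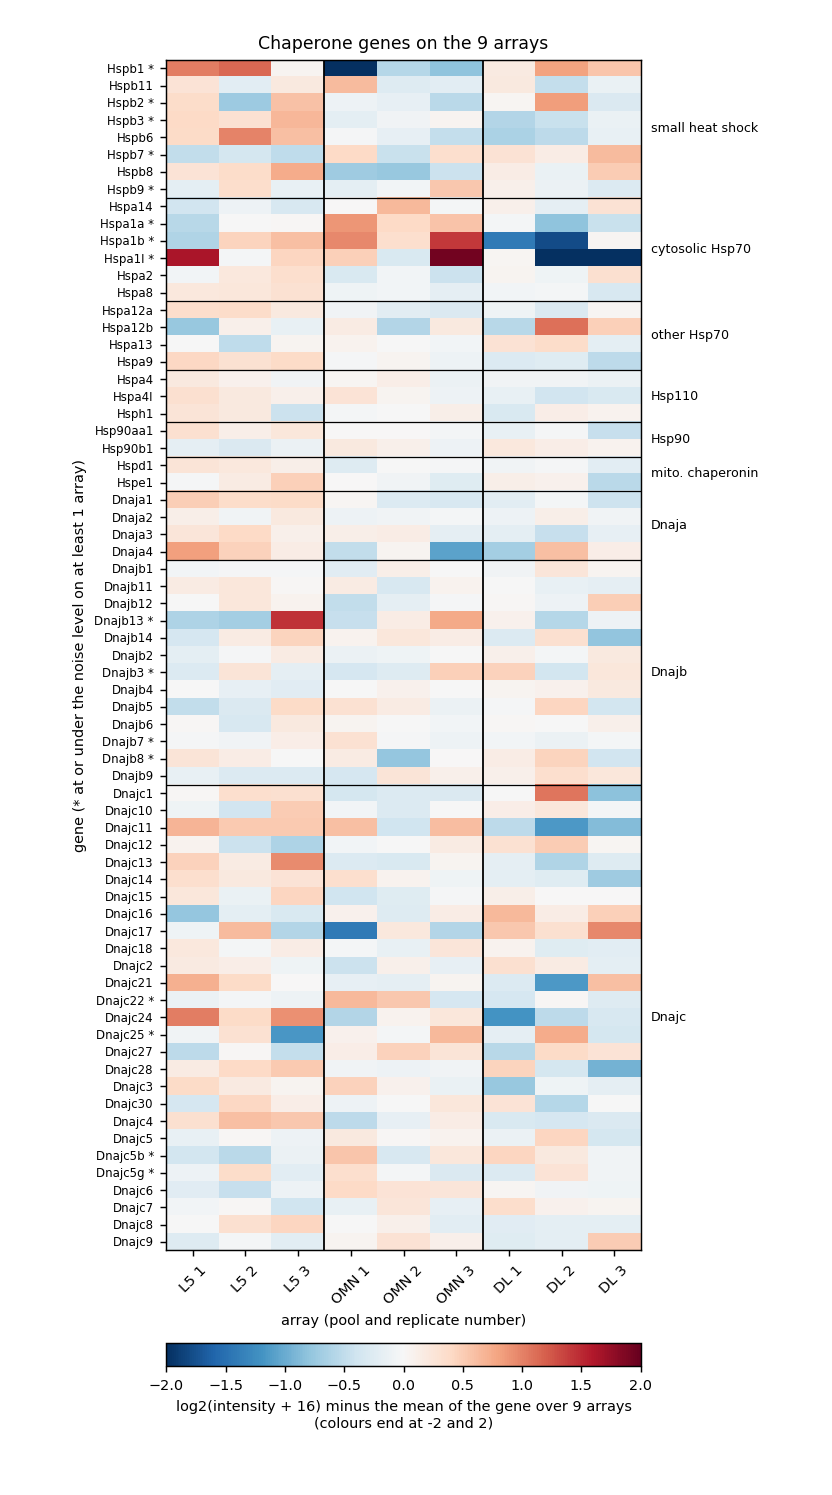
Each row is 1 of the 69 chaperone genes and each column 1 of the 9 arrays; colour gives log2(intensity + 16) minus the mean of the gene over the 9 arrays, with rows grouped by role. Most rows are pale; the strongest colours are in Hspb1, low on the OMN arrays, and in Hspa1b and Hspa1l, low on 2 DL arrays each, and rows marked with a star were at or under noise on at least 1 array.

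Pool differences were estimated for each gene as log2(intensity + 16), which understates the change of dim genes, with limma on all 9 arrays and the replicate number as a block. P-values were adjusted over all 18193 genes, and a gene is called different at an adjusted p under 0.05. They measure only the spread between these 9 samples. Between L5 and OMN, limma called 1 member, Hspb8, higher in L5, where 2.15% of all genes were called. Between L5 and DL it called 1 member, Dnajc11, higher in L5, against 2.52% of all genes. Between DL and OMN it called 1 member, Hspa1b, lower in DL, against 3.00% of all genes. For L5 against the mean of OMN and DL limma called 0 members, with a lowest adjusted p of 0.0697 for Dnajc24, against 2.19% of all genes.

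At an unadjusted limma p under 0.05, 13 members (18.8%) differed between L5 and OMN, 10 of them with the larger value in L5, against 16% of all genes. Between L5 and DL 16 members (23.2%) did so, 13 larger in L5, against 18.9% of all genes. Between DL and OMN 8 members (11.6%) did so, 3 larger in DL, against 16.1% of all genes. For L5 against the mean of both other pools 20 members (29%) did so, 14 larger in L5, against 18.3% of all genes. The first 3 shares lie within 5 percentage points of the share over all genes. The share of members in the last comparison moved with brightness. Among genes with a mean over noise it was 30.5%, against 22.9% of genes, and among those with a mean over 1000 it was 25%, against 25.4%. The adjusted counts moved with the settings: without the replicate block they were 1, 5, 0 and 2 members in the order of the comparisons above, where 574, 805, 712 and 693 of all genes were called. With trend and robust variances they were 7, 7, 4 and 6 members, where 946, 1147, 872 and 1073 of all genes were called.

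Counts of members whose arrays did not overlap were above the share of all genes where L5 lay on top, and near or below it in the other directions. All 3 L5 arrays lay above all 3 OMN arrays in 18 members (26.1%), against 14.6% of all genes, and above all 3 DL arrays in 18 members, against 13.7% of all genes. The reverse held in 7 members (10.1%) for OMN over L5, against 12.7%, and in 8 members (11.6%) for DL over L5, against 9.64%. OMN lay wholly above DL in 7 members, against 11.6% of all genes, and DL wholly above OMN in 5 members (7.25%), against 9.50%. All L5 arrays lay above all 6 other arrays in 11 members (15.9%), against 6.20% of all genes: Dnaja1, Dnajc4, Dnajc13, Dnajc24, Hsp90aa1, Hspa8, Hspa9, Hspa12a, Hspb3, Hspb6 and Hspd1. All L5 arrays lay below all 6 others in 2 members (2.9%), Dnajc6 and Hsp90b1, against 4.33% of all genes.

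Brightness moved with these counts. Among genes with a mean over 1000, L5 lay above all other arrays in 17.9% of 2486 genes and in 25% of the 24 such members, which is 6 members. At that brightness, L5 lay wholly above OMN in 29.2% of members, below the 34.1% of genes. It lay wholly above DL in 37.5% of members and 24.6% of genes. After quantile normalization, which gives all arrays the same distribution, the count of members fell from 11 to 6, those left being Dnajc4, Dnajc13, Dnajc24, Hspa9, Hspb3 and Hspb6, against 4.97% of all genes. The median log2 difference of the 24 bright members between L5 and OMN was 0.16 as deposited and 0.02 after quantile normalization, and that of the 2486 bright genes was 0.10 and −0.01.

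The median over all members was small in every comparison. It was 0.07 for L5 minus OMN, 0.13 for L5 minus DL, −0.08 for DL minus OMN and 0.12 for L5 minus the mean of both, and over all genes it was 0.01, 0.06, −0.04 and 0.04. Centring each array on its median moved the median of all genes in DL minus OMN from −0.04 to 0.11, and that of the members from −0.08 to 0.06, a shift that is the same for every gene. In 52 of 69 members the difference between L5 and OMN was under 0.5 in size, and in 2 it was over 1, where 13513 and 1042 of all 18193 genes lay there. For L5 and DL these counts were 48 and 5 members and 12877 and 1375 genes, and for DL and OMN 60 and 6 members and 13466 and 1389 genes.

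**Figure D2:**
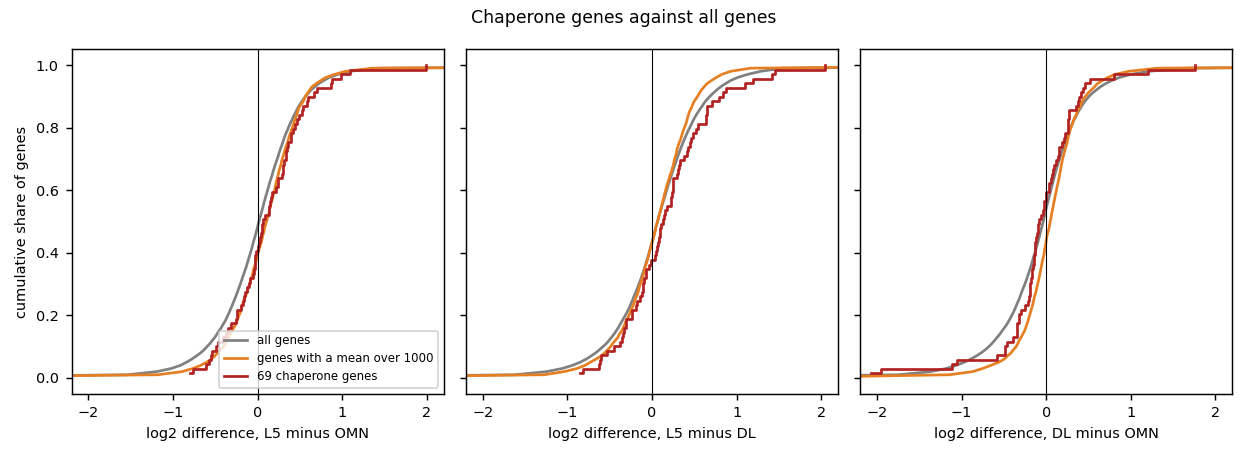
The curves give, for each log2 difference on the x axis, the cumulative share of genes at or below it, for all 18193 genes, the 2486 genes with a mean over 1000 and the 69 chaperone genes, in L5 minus OMN, L5 minus DL and DL minus OMN. The chaperone curve lies close to the other 2, with medians of 0.07, 0.13 and −0.08 against 0.01, 0.06 and −0.04 for all genes.

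The small heat shock proteins held the gene called between L5 and OMN. Hspb8, which works with the co-chaperone Bag3 to send misfolded proteins to autophagy and is mutated in distal hereditary motor neuropathy, read 1342, 1426 and 1871 on the L5 arrays, 673, 651 and 819 on the OMN arrays and 1225, 1004 and 1575 on the DL arrays. All L5 and all DL arrays lay above all OMN arrays, and L5 and DL overlapped. Hspb8 was 2.13-fold higher in L5 than in OMN (log2 1.09, SE 0.18, n = 3 arrays each; limma adjusted p = 0.0317). The DL minus OMN difference was 0.80 (SE 0.18; limma adjusted p = 0.0726) and the L5 minus DL difference 0.29 (95% interval −0.13 to 0.72; adjusted p = 0.446).

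The other probe sets of Hspb8 gave the same direction. The 3 probe sets of the gene gave L5 minus OMN differences of 1.09, 1.29 and 0.84, while in DL minus OMN they gave 0.80, −0.03 and 0.42. On all L5 arrays the summed motor neuron, astrocyte and oligodendrocyte markers and the myelin gene Pmp22 lay above those on all OMN arrays, and their part in the result was not tested. Single markers did not all follow the sums. Of the motor neuron markers, Prph and Mnx1 were called higher in L5 than in OMN. Isl1 was called lower (log2 −1.83; limma adjusted p = 0.0119). The Hspb8 call was lost with a pseudocount of 1 (limma adjusted p = 0.112) and with only the L5 and OMN arrays in the fit (0.0534). When single arrays were left out, it was kept without the second DL array (0.0412) and lost without any one of the other 8 (0.0506 to 0.161), at log2 differences of 1.03 to 1.16.

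Hspb1, known as Hsp25 in mice and mutated in axonal neuropathy, had the largest L5 minus OMN difference of the members, without passing the test. It read 194, 212 and 91.1 in L5, 3.9, 53.6 and 42.9 in OMN and 100, 164 and 136 in DL. Every OMN array lay below every L5 and DL array, and 1 OMN array lay under noise. The L5 minus OMN difference was 1.99 (SE 0.43; limma adjusted p = 0.0757) and the DL minus OMN difference 1.76 (SE 0.43; adjusted p = 0.0890). Its second probe set gave 1.53 for L5 minus OMN, which passed when all probe sets were tested (limma adjusted p = 0.0318), where Hspb8 stood at 0.0488.

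Hspb6 and Hspb3 lay highest in L5 against both other pools. Hspb6, also called Hsp20, read 263, 409 and 309 in L5, 194, 175 and 138 in OMN and 122, 132 and 178 in DL. The L5 arrays did not overlap the other 6, and the difference of L5 from the mean of both was 0.99 (SE 0.22; limma adjusted p = 0.0730). Hspb3, a neuropathy gene, was dim, with 36.1, 32.8 and 47.1 in L5, 18.5, 21.8 and 25.2 in OMN and 10.5, 13.1 and 20.1 in DL. Its difference of L5 from DL was 0.84 (SE 0.18; limma adjusted p = 0.0611), and 2 of its DL arrays were under noise.

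The remaining small heat shock genes were dim or even across pools. Hspb7, a muscle and heart protein, lay under noise on 8 of 9 arrays, and Hspb2 on 6. Hspb11, also a component of the intraflagellar transport machinery of cilia, read 325 to 718 with an L5 minus OMN difference of 0.03 (95% interval −0.45 to 0.52). Of the 8 genes of the group, 6 had an L5 minus OMN difference above 0 under each of the 3 scalings (deposited, centred and quantile), and 4 had an unadjusted limma p under 0.05. Over all genes, 51.6% lay above 0 as deposited and 16% had such a p. The median of the 8 was 0.44 as deposited.

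**Figure D3:**
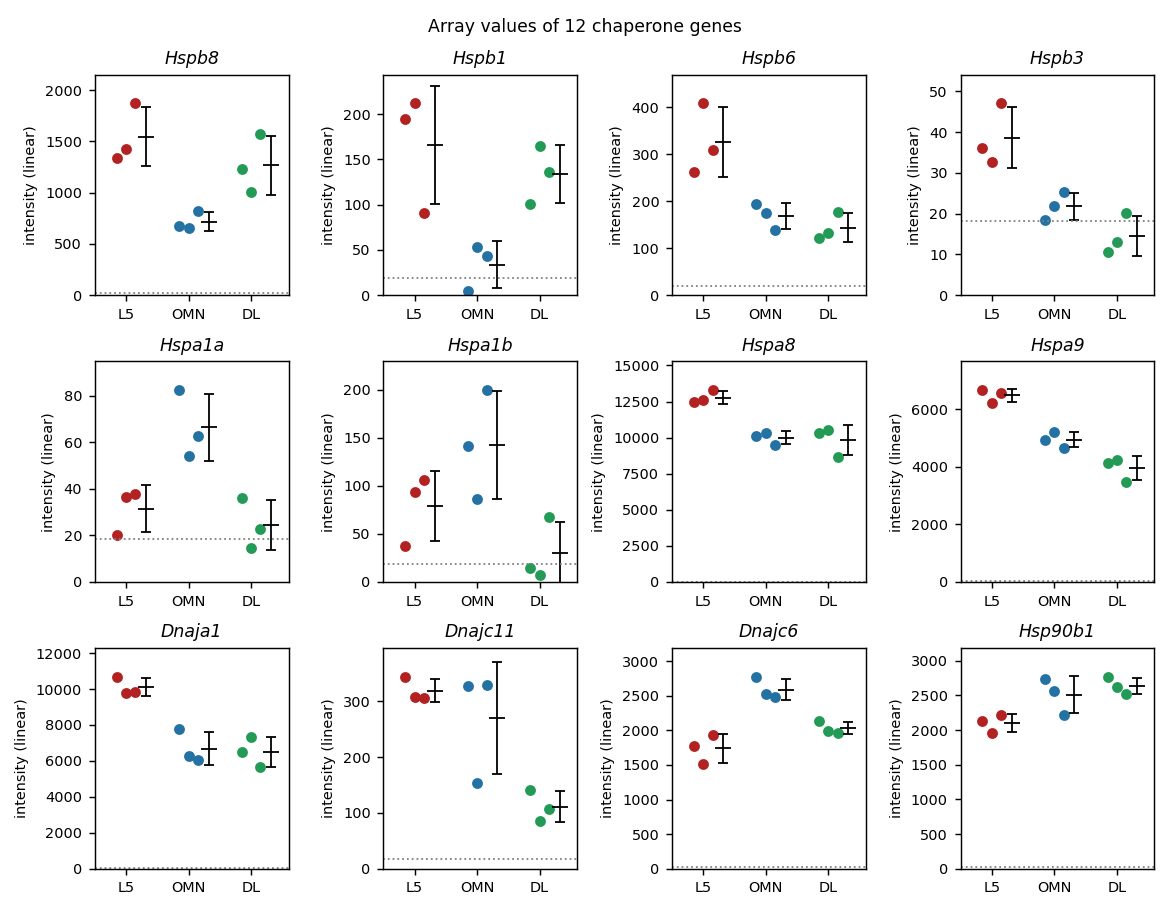
Points are linear intensities of 12 chaperone genes on the single arrays of L5, OMN and DL, black bars are the mean ± SD of 3 arrays (cut at 0 for Hspa1b in DL), and the dotted line is the noise level of 18.3. Hspb8 read 651 to 819 in OMN and 1004 to 1871 elsewhere, and Dnajc11 read 85.6 to 141 in DL and 154 to 344 elsewhere.

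Among the Hsp70 genes of the cytosol, the stress-inducible pair separated OMN from DL. Hspa1b read 37.6, 93.7 and 106 in L5, 142, 86.6 and 200 in OMN and 14.5, 7.4 and 67.4 in DL. Every OMN array lay above every DL array, 2 of the 3 DL arrays were under noise, and L5 overlapped both other pools. Hspa1b was lower in DL than in OMN (log2 −1.96, SE 0.37, n = 3 arrays each; limma adjusted p = 0.0393). With 2 DL arrays under noise, the size of this difference depends on the pseudocount. The L5 minus DL difference was 1.20 (SE 0.37; limma adjusted p = 0.145).

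Its near copy Hspa1a also lay lowest in DL against OMN, at low intensity, with 20.1, 36.7 and 37.9 in L5, 82.5, 54.3 and 62.7 in OMN and 35.9, 14.4 and 22.9 in DL. Every OMN array lay above every L5 and DL array. The DL minus OMN difference was −1.05 (SE 0.28; limma adjusted p = 0.112), and the L5 minus OMN difference was −0.80 (SE 0.28; adjusted p = 0.221). Probes of Hspa1a and Hspa1b may read both genes, since their transcripts are nearly identical. The other 2 probe sets of Hspa1b, under noise on 7 of 9 arrays each, gave −1.08 and −0.96 for DL minus OMN.

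The Hspa1b call was lost under several settings while the difference stayed similar or larger. It was −1.96 without the replicate block (limma adjusted p = 0.0715) and with only the DL and OMN arrays (0.0749), −1.82 with quantile normalization (0.0541), −1.90 with array weights (0.0521), −2.71 with a pseudocount of 1 (0.125) and −2.30 when the Gapdh ratio entered as a covariate (0.0918). Of the single arrays, leaving out the second L5 array kept it (0.0222) and leaving out any other lost it (0.0516 to 0.164).

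Hspa1l, another gene of the same cluster, known from testis, scattered widely. It read 222, 58.5 and 87.5 in L5, 90.6, 46.4 and 275 in OMN and 62.7, 2.9 and 1.6 in DL. The DL minus OMN difference was −2.07 with an SE of 0.60 (limma adjusted p = 0.138), and the first DL array overlapped OMN.

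Hspa8, the constitutive Hsc70 that also uncoats clathrin vesicles at nerve terminals, read 12468, 12578 and 13289 in L5, 10141, 10349 and 9487 in OMN and 10345, 10509 and 8657 in DL. The 3 L5 arrays lay above the other 6. The L5 minus OMN difference was 0.35 (95% interval −0.07 to 0.78; limma adjusted p = 0.392) as deposited and −0.06 after quantile normalization, so its sign depended on the scaling. Hspa2 had an L5 minus OMN difference of 0.42 (SE 0.21; limma adjusted p = 0.386), and Hspa14, which acts at the ribosome, had one of −0.47 (SE 0.25; adjusted p = 0.422). The other probe sets of Hspa14 gave 0.26 and 0.12, so the direction for Hspa14 was not settled.

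The Hsp70 genes outside the cytosol and the distant relatives were led by Hspa9, or mortalin, which pulls proteins into mitochondria. It read 6672, 6221 and 6578 in L5, 4953, 5210 and 4674 in OMN and 4146, 4259 and 3491 in DL. No pair of pools overlapped, with L5 above OMN and OMN above DL. The L5 minus DL difference was 0.71 (SE 0.18; limma adjusted p = 0.0900), and it was 0.56 after quantile normalization. The next brightest probe set of Hspa9 gave 0.26 for L5 minus DL (SE 0.19; limma adjusted p = 0.566 over all probe sets). For DL minus OMN it gave −0.003, so it did not repeat the order of OMN above DL. Hspa12a, a distant Hsp70 of the brain, had an L5 minus OMN difference of 0.49 (SE 0.19; limma adjusted p = 0.266), and Hspa13 of the endoplasmic reticulum one of −0.16 (SE 0.24; adjusted p = 0.807).

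The Hsp110 genes, which exchange nucleotides on Hsp70, differed between probe sets. Hsph1, or Hsp105, read from 3321 to 5377 in L5, from 4357 to 4875 in OMN and from 3619 to 4887 in DL, and its L5 minus OMN difference was −0.02 (95% interval −0.60 to 0.57; limma adjusted p = 0.988). Hspa4 had an L5 minus OMN difference of 0.05 (95% interval −0.36 to 0.47). The second probe set of Hsph1, with pool means ± SD of 5436 ± 127 in L5, 4139 ± 248 in OMN and 3628 ± 201 in DL, gave 0.39 for L5 minus OMN and 0.58 for L5 minus DL (SE 0.17 each; limma adjusted p = 0.383 and 0.164 over all probe sets). The probe sets of Hsph1 thus disagreed, and Hspa4 gave −0.16 for L5 minus OMN after quantile normalization. In the probe set used, Hspa4l read 1235 to 1450 in L5 and 883 to 1045 in DL without overlap. Its L5 minus DL difference was 0.48 (SE 0.18; limma adjusted p = 0.196). Another Hspa4l probe set, above noise on all arrays, gave −0.18 for L5 minus DL and −0.64 for L5 minus OMN. The remaining Hspa4l probe sets gave positive L5 minus DL differences, so the direction was shared by most but not all of them.

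The Hsp90 genes pointed opposite ways without passing the test. Hsp90aa1, the inducible cytosolic Hsp90, read 8436, 7319 and 7846 in L5, 6753, 6747 and 6525 in OMN and 6094, 6640 and 4898 in DL. Its L5 minus OMN difference was 0.23 (SE 0.19; limma adjusted p = 0.614) as deposited and −0.05 after quantile normalization, and of its 4 other probe sets one gave −0.23 and another 0.17. Hsp90b1, the Grp94 of the endoplasmic reticulum, read 2125, 1958 and 2213 in L5, 2741, 2564 and 2222 in OMN and 2765, 2618 and 2524 in DL. L5 lay below all other arrays, and the difference of L5 from the mean of both was −0.29 (SE 0.16; limma adjusted p = 0.384). Hsp90ab1 was not analysed here.

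Hspd1 and Hspe1, the Hsp60 and Hsp10 of the mitochondrial folding chamber, share the promoter stretch shown above. Hspd1 read 6321, 6129 and 5741 in L5, 4395, 5229 and 5154 in OMN and 5021, 5159 and 4551 in DL. Hspe1 read 5537, 6283 and 7824 in L5, 5629, 5313 and 4734 in OMN and 6104, 5952 and 3865 in DL. The L5 arrays lay above all others in Hspd1 and overlapped them in Hspe1. Their L5 minus OMN differences were 0.30 (SE 0.18) and 0.31 (SE 0.25), with limma adjusted p-values of 0.475 and 0.611, and 0.09 and 0.08 after quantile normalization.

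**Figure D4:**
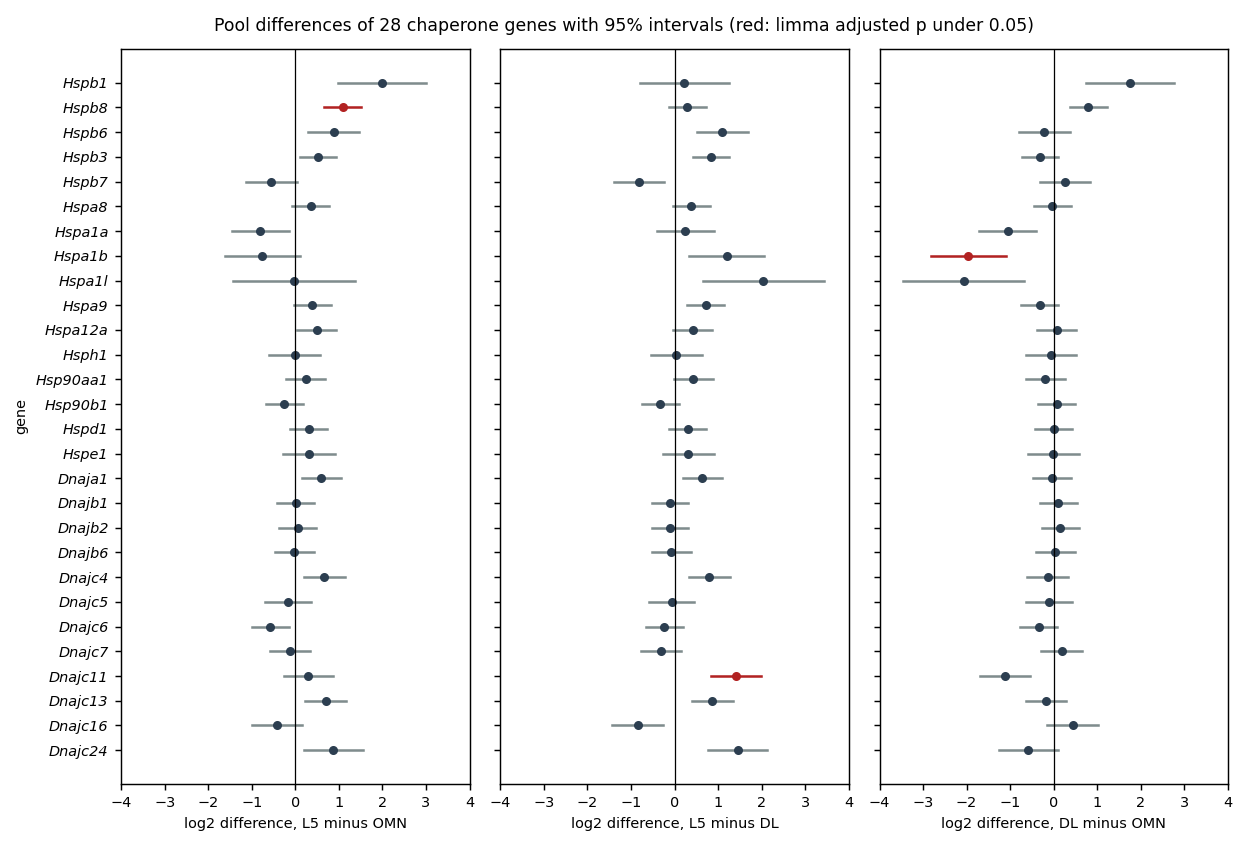
Points are log2 differences of 28 chaperone genes in L5 minus OMN, L5 minus DL and DL minus OMN, with 95% intervals from limma; red marks an adjusted p under 0.05 over all genes. The 3 red points are Hspb8 at 1.09, Dnajc11 at 1.42 and Hspa1b at −1.96.

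Type A DnaJ proteins resemble bacterial DnaJ most and bind clients themselves. Dnaja1, a partner of cytosolic Hsp70, read 10667, 9773 and 9829 in L5, 7767, 6270 and 6030 in OMN and 6511, 7333 and 5682 in DL. Its L5 arrays lay above the other 6, and the difference of L5 from the mean of both was 0.62 (SE 0.16; limma adjusted p = 0.114), or 0.32 after quantile normalization. The other 2 probe sets of the gene did not repeat this, with L5 minus OMN differences of −0.04 and 0.09. In the probe sets used, all 4 genes of the type, with Dnaja2, the mitochondrial Dnaja3 and Dnaja4, had L5 minus OMN and L5 minus DL differences above 0 under each scaling, with medians of 0.41 and 0.49. Other probe sets did not all repeat this. Those of Dnaja1 gave −0.29 and 0.07 for L5 minus DL. For L5 minus OMN and L5 minus DL, 1 of Dnaja2 gave −0.37 and −0.29, and another 0.16 and 0.18. Of the 4 genes, limma called 0, and 2 had an unadjusted p under 0.05 in each of these comparisons. Over all genes, 51.6% and 56.6% lay above 0 as deposited, and 16% and 18.9% had such a p.

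The 13 type B genes held 0 members with an unadjusted limma p under 0.05 in any of the 4 comparisons. Dnajb1, the classic heat-inducible Hsp40, read 3683, 3790 and 3781 in L5, 3292, 4161 and 3824 in OMN and 3656, 4543 and 3979 in DL. Its L5 minus OMN difference was 0.00 (95% interval −0.41 to 0.42; limma adjusted p = 0.998), and all arrays overlapped. Dnajb2, mutated in distal motor neuropathy, and Dnajb6, which blocks protein aggregation and carries the 3-unit element, had L5 minus OMN differences of 0.05 (95% interval −0.37 to 0.47) and −0.03 (95% interval −0.48 to 0.42). The signs of all 3 turned under another scaling. The intervals allow differences of up to about 0.5 in either direction, so equal levels are not shown. Dnajb9, an endoplasmic reticulum protein, had the lowest adjusted p of the group for L5 minus DL, at a difference of −0.45 (SE 0.20; limma adjusted p = 0.287).

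The 27 type C genes share only the J domain and do varied work. Dnajc11, a protein of the mitochondrial membranes that takes part in cristae formation, read 344, 307 and 307 in L5, 327, 154 and 330 in OMN and 141, 85.6 and 108 in DL. Every DL array lay below every L5 and OMN array. Dnajc11 was 2.67-fold higher in L5 than in DL (log2 1.42, SE 0.24, n = 3 arrays each; limma adjusted p = 0.0331), and the DL minus OMN difference was −1.12 (SE 0.24; adjusted p = 0.0624). A second probe set above noise gave 0.70 for L5 minus DL (SE 0.21; adjusted p = 0.162 over all probe sets), and the other 2 were dim.

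The Dnajc11 call was also lost under several settings. The L5 minus DL difference was 1.54 with a pseudocount of 1 (limma adjusted p = 0.0978), 1.44 with array weights (0.0533), 1.42 with only the L5 and DL arrays (0.100), 1.30 when the Gapdh ratio entered as a covariate (0.149) and 0.60 when all probe sets were averaged (0.0996). When single arrays were left out, it was kept without the second OMN array (0.0402) and lost without any other (0.0527 to 0.143).

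Dnajc24, which helps to make the diphthamide of elongation factor 2, had the lowest adjusted p of L5 against both other pools. It read 405, 255 and 372 in L5, 122, 200 and 226 in OMN and 74.6, 128 and 150 in DL, with L5 above all others. The difference of L5 from DL was 1.45 (SE 0.29; limma adjusted p = 0.0513). The other Dnajc24 probe set gave smaller differences, 0.65 for L5 minus DL and 0.28 for L5 minus OMN (limma adjusted p = 0.446 and 0.809 over all probe sets). Dnajc4 read from 317 to 390 in L5, from 170 to 280 in OMN and from 196 to 203 in DL, and its L5 minus DL difference was 0.80 (SE 0.20; limma adjusted p = 0.0910). Dnajc13, an endosomal protein, had an L5 minus OMN difference of 0.70 in the probe set used and −0.61 in the other, so the direction for this gene was not settled.

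The DnaJ genes of nerve terminals did not share that order. Dnajc6, or auxilin, which calls Hsc70 to clathrin-coated vesicles, read 1775, 1507 and 1934 in L5, 2771, 2521 and 2480 in OMN and 2137, 1994 and 1967 in DL. The 3 pools did not overlap, with OMN above DL and DL above L5. The L5 minus OMN difference was −0.58 (SE 0.18; limma adjusted p = 0.187) and −0.65 after quantile normalization, and a second probe set above noise on all arrays gave −0.72 for L5 minus OMN but 0.20 for L5 minus DL, so the order of L5 and DL was not settled. Dnajc5, the cysteine string protein of synaptic vesicles, read from 1452 to 1638 in L5, from 1639 to 1849 in OMN and from 1263 to 2183 in DL, with an L5 minus OMN difference of −0.17 (SE 0.22; limma adjusted p = 0.766).

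Other type C genes with an unadjusted p under 0.05 did not pass the adjusted test. Dnajc16 had an L5 minus DL difference of −0.85 (SE 0.25; limma adjusted p = 0.128) and Dnajc12, a partner of aromatic amino acid hydroxylases, one of −0.61 (SE 0.24; adjusted p = 0.223). The other Dnajc16 probe set, above noise on all arrays, gave 0.26 for L5 minus DL, so the direction for Dnajc16 was not settled. Dnajc14 had a DL minus OMN difference of −0.49 (SE 0.19; limma adjusted p = 0.279) and Dnajc17 one of 1.20 (SE 0.41; adjusted p = 0.199). Dnajc27 had an L5 minus OMN difference of −0.61 (SE 0.22; limma adjusted p = 0.240). Dnajc5b, under noise on 7 of 9 arrays, had a difference of L5 from the mean of both of −0.51 (SE 0.21; limma adjusted p = 0.260).

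Members linked to inherited motor neuropathy, ALS or nerve terminals formed a list of 12 measured genes: Hspb1, Hspb3, Hspb8, Dnajb2, Dnajb6, Dnajc5, Dnajc6, Dnajc7, Dnajc13, Hspa8, Hsp90aa1 and Hsph1. Of these limma called 1 between L5 and OMN, Hspb8, and 0 in the other 3 comparisons. At an unadjusted p under 0.05 the counts were 5 of 12 between L5 and OMN (4 larger in L5), 2 between L5 and DL, 2 between DL and OMN and 6 against the mean of both. These are 41.7%, 16.7%, 16.7% and 50% of the list, beside 16%, 18.9%, 16.1% and 18.3% of all genes. Among all genes with a mean over 1000 the shares were 21.3%, 22.8%, 14% and 25.4%. The list was chosen with earlier results of these data known, so its shares do not test it. Dnajc7, a gene linked to ALS, read from 2424 to 3248 in L5, from 2864 to 3785 in OMN and from 3327 to 4104 in DL, with an L5 minus DL difference of −0.31 (SE 0.20; limma adjusted p = 0.461). The median L5 minus OMN difference of the list was 0.14 as deposited and −0.06 after quantile normalization.

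Of 10 heat-inducible members, Hspa1a, Hspa1b, Dnajb1, Dnaja1, Hsph1, Hsp90aa1, Hspb1, Hspd1, Hspe1 and Hspa8, limma called 1, Hspa1b between DL and OMN, and 0 in the other 3 comparisons. At an unadjusted p under 0.05 there were 3, 2, 3 and 3 of 10, or 30%, 20%, 30% and 30%, in the order of the comparisons above, beside 16%, 18.9%, 16.1% and 18.3% of all genes. Their medians were 0.27, 0.31, −0.03 and 0.31, and the first was −0.06 after quantile normalization. As deposited, values above 0 were found in 7, 9, 2 and 8 of the 10, beside 51.6%, 56.6%, 45.8% and 54.1% of all genes. These counts depended on the scaling. After centring, the DL minus OMN median was 0.11. After quantile normalization, the L5 minus OMN differences of Dnajb1, Hsp90aa1 and Hspa8 were −0.16, −0.05 and −0.06. This list, too, was chosen with earlier results of these data known, so its shares do not test it. Between DL and OMN, Hspb1 had a difference of 1.76 and Hspa1b one of −1.96.

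The other genes of chaperone pathways, 66 measured of 70 listed, gave 0 calls by limma in all 4 comparisons. At an unadjusted p under 0.05 there were 13 for L5 with OMN (13 larger in L5), 15 for L5 with DL (12 larger in L5), 6 for DL with OMN (3 larger in DL) and 15 for L5 with the mean of both (13 larger in L5). The shares were 19.7%, 22.7%, 9.09% and 22.7%, beside 16%, 18.9%, 16.1% and 18.3% of all genes. Their median L5 minus OMN difference was 0.19 as deposited and 0.14 after quantile normalization. Bag3, the partner of Hspb8, read 135, 182 and 171 in L5, 43.4, 58.3 and 88.0 in OMN and 146, 267 and 96.6 in DL. As for Hspb8, every OMN array lay below every L5 and DL array, and the L5 minus OMN difference was 1.20 (SE 0.34; limma adjusted p = 0.143).

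The activator of Hsp90 Ahsa1 read 2402, 2505 and 2422 in L5, 1241, 1279 and 1802 in OMN and 1512, 1483 and 1589 in DL, with a difference of L5 from the mean of both of 0.72 (SE 0.17; limma adjusted p = 0.0866). Its relative Ahsa2 read from 1623 to 2064 in L5, from 700 to 1234 in OMN and from 1678 to 2023 in DL, with a DL minus OMN difference of 0.91 (SE 0.25; limma adjusted p = 0.118). Trap1, the mitochondrial Hsp90, had an L5 minus DL difference of 0.81 (SE 0.23; limma adjusted p = 0.122), and the J protein Hscb, which serves iron-sulphur cluster assembly, a DL minus OMN difference of −1.24 (SE 0.40; adjusted p = 0.182). Serpinh1, the collagen chaperone of matrix-making cells, read 371, 765 and 1042 in L5, 1175, 1358 and 1414 in OMN and 2485, 1211 and 1318 in DL, with a difference of L5 from the mean of both of −1.09 (SE 0.37; limma adjusted p = 0.183). The 9 subunits of the cytosolic chaperonin TRiC had 8 L5 minus OMN differences above 0, where 51.6% of all genes lay above 0. Their median was 0.16, and 0.03 after quantile normalization.

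Of 6 genes for heat shock factors and their binding proteins, 5 were measured, and limma called 0 of them in any comparison, with 0, 1, 1 and 1 at an unadjusted p under 0.05. Their median L5 minus OMN difference was −0.07. Hsf2 read 96.7, 29.9 and 33.3 in L5, 80.9, 78.0 and 82.5 in OMN and 76.8, 34.1 and 16 in DL. OMN lay above DL without overlap and overlapped L5, and the DL minus OMN difference was −0.86 (SE 0.32; limma adjusted p = 0.249).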

How the data were processed

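The authors deposited 1 table of processed array intensity values, 1 for each of 45101 probe sets on each of 9 arrays, 3 per pool, with groups taken from the sample titles. The intensities were linear, and the mean of each array after removing 2% of the values at each end was 250.0, with software not given in the sources used here. The number of arrays limits the precision. The 64 control probe sets were left out, and 34945 of the rest named 1 gene, 932 several and 9160 none, which gave 18193 genes. The highest mean was taken over log2 values. Members and lists were chosen with earlier results of these data known; the noise level was chosen after the values were seen. Values were analysed as log2(intensity + 16) with R 4.3.3 and limma 3.58.1 (lmFit and eBayes), with pool as factor and replicate number as block, since the labels' protocols state that each animal gave all pools. The Benjamini-Hochberg adjustment was used, and intervals are 95% intervals. The fit was tested on simulated data. Genes are named where called, where they had 1 of the 5 smallest p-values in a direction (2 for other chaperones), where among the 3 brightest of a role, or where in the neuropathy or heat-inducible list. Alternatives were another pseudocount, centring, quantile normalization, all probe sets, other variance settings, array weights, a filter on dim genes, a Gapdh covariate, pairwise fits, no block, and arrays left out. The 3 probe sets that name Dnajc19 together with another gene were outside the rule.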

Additional observations from a re-analysis of the deposited data

How the results depend on the processing

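With 3 arrays per pool, counts of called members rested on the settings. Between L5 and OMN, with 1 as reported, 0 members were called with a pseudocount of 1, only these 2 pools in the fit, or DL arrays 1 and 3 left out together (chosen after seeing the data; the 1 DL array left is assumed to vary like the other pools), 2 with the mean of all probe sets or array weights, and 7 with trend and robust variances. Between L5 and DL, with 1 as reported, 5 were called with no replicate block, 0 with a pseudocount of 1, array weights, the Gapdh covariate, only 2 pools, or both DL arrays left out, 2 with only genes over noise on 3 arrays, and 7 with trend and robust variances. Between DL and OMN, with 1 as reported, 0 were called with no replicate block, a pseudocount of 1, quantile normalization, array weights, the Gapdh covariate, only 2 pools, or both DL arrays left out, 2 with centred arrays or the mean of all probe sets, and 4 with trend and robust variances. For L5 against the mean of both, with 0 as reported, 2 were called with no replicate block, 1 when all probe sets were averaged and 6 with trend and robust variances. Leaving out single arrays gave 0 to 1 members in each pairwise comparison and 0 to 0 against the mean. Of the other chaperone genes, trend and robust variances called 7, 9, 1 and 12 in the 4 comparisons against 0 as reported, no replicate block called 2 against the mean of both, and leaving out single arrays gave 0 to 1 for DL with OMN and 0 to 0 otherwise. The causes were not tested. Over all genes, calls ranged from 82 to 946 between L5 and OMN (392 as reported), from 0 to 1147 between L5 and DL (459), from 119 to 872 between DL and OMN (545) and from 36 to 1073 against the mean (398). Counting all settings and comparisons, 14 members were called at least once. The calls of Hspb8, Dnajc11 and Hspa1b held in 9, 6 and 5 of 19 alternatives, with no change of sign. Of the values for single genes under the alternatives, 50 passed the threshold and 40 lost it. Another 4196 kept their side of it and either kept their sign, whatever the size of the move, or moved by less than 1 SE. The other 51 changed sign by 1 SE or more without being called. Deviations of same-numbered arrays from their pool means correlated at −0.07 to 0.06 over 9 pairs, and those of different numbers at −0.07 to 0.06 over 18, and not every array correlated best with its own number, so the data show no pairing by number, and no label states that equal numbers mean 1 animal. Arrays near 18.3 give no order between pools.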
